A study of Mus musculus with 3 samples.

Results

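Scx was followed over a fixed 30 kb interval of chromosome 15, from 7452 bp before to 22548 bp after its start site in the mm10 (GRCm38) assembly, in single-nucleus ATAC-seq of mouse forelimb mesenchymal progenitors (MPs). The members were all called peaks that overlapped this interval, which numbered 18 of 506515 peaks in 3 separately called lists. There were 5 of 190443 peaks at embryonic day (E) 12.5, 7 of 102459 at E14.5 and 6 of 213613 at E16.5. The interval and its parts were chosen by the called extent and counts of the peaks over Scx, wide at E12.5 and split later, so the difference between stages at this locus is given as a description and without a test.

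All 3 libraries came from Hic1CreERT2/CreERT2; Rosa26LSLtdTomato/tdTomato embryos on the C57BL/6J strain, whose dams received 7.5 mg of tamoxifen by gavage at embryonic day 10. CreERT2 was thus driven from the Hic1 locus, and cells that had used it carried red fluorescence permanently. The tdTomato-positive cells of pooled forelimbs had been sorted against CD45, CD117, CD31, CD11b, F4/80 and Ter119. The E12.5 and E14.5 libraries were of forelimb and the E16.5 library of a segment around the elbow, from distal stylopod to proximal zeugopod. Dispase was used for digestion at E12.5, whereas Collagenase A, Pronase and DNase were used at the later stages. With 1 library per stage, stage cannot be told apart from library, digestion, limb segment or the pipeline version of that library.

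SCX (scleraxis) is a basic helix-loop-helix transcription factor that marks tendon and ligament progenitors and drives tendon genes such as Tnmd. Proteins of this class bind DNA as dimers at E-boxes, short motifs of the form CANNTG. In the limb, Scx is also active in the shared progenitors that build the attachment of tendon to cartilage, together with the chondrogenic regulator SOX9.

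Scx (ENSMUSG00000034161.8, chr15:76457452-76459458, plus strand) lies inside intron 3 of Bop1, a 10745 bp intron at chr15:76456027-76466771. Bop1 (ENSMUSG00000022557.11, chr15:76452989-76477277, minus strand) encodes a ribosome biogenesis protein. Hsf1 (ENSMUSG00000022556.11), the gene of a heat shock transcription factor, starts at position 76477422 on the plus strand, and a single peak covered the start sites of Bop1 and Hsf1 at every stage. Mroh1 (ENSMUSG00000022558.16, chr15:76380261-76453038, plus strand) enters the interval only with its 3′ end. Its promoter lies outside the interval and was read separately.

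At the later stages, most counts of the locus fell downstream of Scx, largely in intron 3 of Bop1, in sequence that was called as part of 1 wide peak at E12.5 and as separate peaks later. The central 300 bases of 2 of these later peaks are shown because they are the stretches that leave or join the Scx peak when the calling changes between stages. Both lie in intron 3 of Bop1, and they are given on the plus strand of GRCm38 from RefSeq, with each CANNTG in capitals. The first is the narrow E16.5 peak at chr15:76459636-76459935, and the other is the first E14.5 peak after Scx, at chr15:76462503-76462802.
Narrow E16.5 peak after Scx: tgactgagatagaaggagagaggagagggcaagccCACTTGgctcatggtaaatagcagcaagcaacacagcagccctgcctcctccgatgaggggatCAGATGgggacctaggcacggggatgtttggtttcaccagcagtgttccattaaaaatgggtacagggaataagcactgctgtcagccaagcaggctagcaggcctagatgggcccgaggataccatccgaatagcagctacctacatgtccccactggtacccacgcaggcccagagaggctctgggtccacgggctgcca
First E14.5 peak after Scx: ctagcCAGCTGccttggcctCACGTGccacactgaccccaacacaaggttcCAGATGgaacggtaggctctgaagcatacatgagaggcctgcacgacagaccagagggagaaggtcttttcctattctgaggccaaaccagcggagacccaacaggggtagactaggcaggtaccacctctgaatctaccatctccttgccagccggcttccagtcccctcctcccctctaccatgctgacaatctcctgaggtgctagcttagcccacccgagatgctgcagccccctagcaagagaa

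The motif CANNTG, which reads the same on both strands, occurred 2 times in the narrow E16.5 peak and 3 times in the first E14.5 peak. At least 1 match was present in 80.6% of 85129 E14.5 peak centres of the same length, with a median of 2, so these numbers are near the background. The E-box form CATCTG, searched on both strands and contained in CANNTG, was present 1 time in each. It was present in 28.0% of all centres. The AP-1 motif TGANTCA, searched on both strands, was found in neither sequence and in 10.7% of all centres. A match describes the sequence and does not show binding.

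The libraries held 8294, 20023 and 14048 nuclei from E12.5 to E16.5, with total counts of 87048167 to 413425059 and a median of 6003.5 to 26694 counts per nucleus. A count is a transposase cut site in a called peak. Between 151 and 401 cell barcodes were shared by a pair of libraries, at most 2.85% of the smaller list. The loci of Hic1, Prrx1, Twist1 and Tbx5, which mark limb mesenchyme and the traced lineage, had 51.0 to 178 CPM, as defined below, at every stage. The erythroid gene Gata1 was at 0 throughout, but genes of sorted markers were not without counts, with 11.1 to 28.5 CPM at Ptprc, which encodes CD45, and 30.5 to 76.2 CPM at Pecam1, which encodes CD31. The myeloid regulator gene Spi1 had 23.5 to 31.9 CPM. CPM stands for counts per 1000000 counts in autosomal regions with a peak of all 3 libraries, and all intervals in parentheses are 95% intervals for counting error only.

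The whole 30 kb interval had fewer counts at the later stages, but the decrease was small. The E12.5 library had 203 CPM (199 to 208) in it, the E14.5 library 188 CPM (186 to 191) and the E16.5 library 155 CPM (153 to 157). The counting intervals of the 3 libraries did not overlap. The log2 ratio was -0.11 for E14.5 over E12.5, -0.28 for E16.5 over E14.5 and -0.39 for E16.5 over E12.5, the last being a 1.31-fold lower value. The sign of the first step depended on the scaling, since it was 0.05 with the median ratio over shared regions and 0.07 when scaled to the counts of all autosomal peaks. The peaks covered 14289, 11317 and 14473 bp of the interval, so the first and last stages were read over nearly equal called widths.

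**Figure D1:**
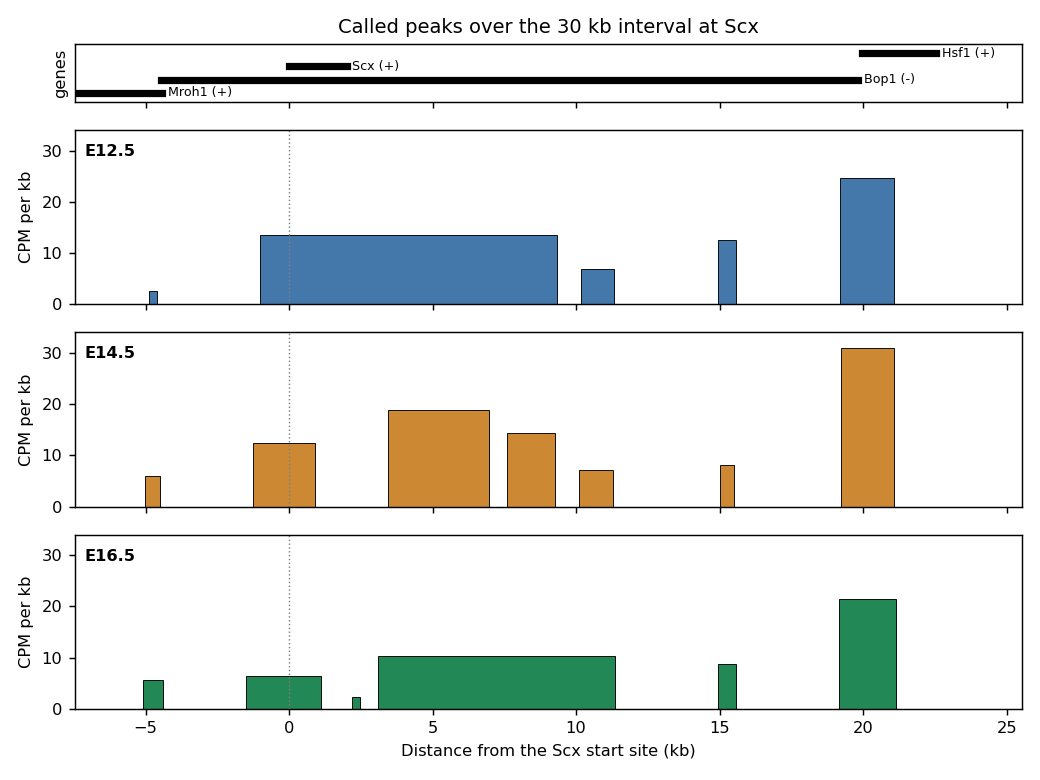
Called peaks across the 30 kb interval in each library, plotted against distance from the Scx start site (kb), with the height of each box giving CPM per kb of peak and the genes drawn above. The single E12.5 peak over Scx reached 9346 bp past the start site, whereas the E14.5 peak ended 892 bp and the E16.5 peak 1119 bp past it, with further peaks beyond.

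The peak over the Scx promoter gave a much larger difference, and it was not the same stretch at the 3 stages. At E12.5 it spanned 10365 bp (chr15:76456434-76466798), and it held 140 CPM (136 to 144), equal to 13.5 CPM per kb. At E14.5 it spanned 2145 bp (chr15:76456200-76458344) with 26.6 CPM (25.6 to 27.6), or 12.4 CPM per kb. At E16.5 it spanned 2611 bp (chr15:76455961-76458571) with 16.7 CPM (16.1 to 17.3), or 6.39 CPM per kb. Read peak against peak, the Scx promoter and body were thus 8.41-fold lower at E16.5 than at E12.5 (log2 -3.07), and most of this appeared in the step to E14.5 (log2 -2.40). The called width of the peak differed by -2.27 on the log2 scale in that same step, and per kb the difference was -0.13. Over the whole span, the width differed by -1.99 and the value per kb by -1.08, so a lower value per kb remained at E16.5. The median of the 30 kb gene windows described below was also lower per kb over that span (log2 -0.25).

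At the later stages, other peaks covered the sequence beyond the gene. At E14.5 the largest value beyond the gene was that of a 3501 bp peak (chr15:76460902-76464402) with 66.0 CPM (64.4 to 67.6). A further peak of 1174 bp held 8.44 CPM at E14.5 and had a match of 1161 bp and 8.11 CPM at E12.5. At E16.5 the whole of this sequence was 1 peak of 8234 bp (chr15:76460563-76468796) with 85 CPM (83.6 to 86.4). The highest value of the Scx locus at both later stages therefore lay downstream of the gene and not over its promoter. A narrow peak of 310 bp just after the gene was called only at E16.5, at 0.722 CPM (0.615 to 0.843).

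Merging the overlapping peaks of the 3 libraries gave 1 region of 12836 bp (chr15:76455961-76468796) in which all stages could be compared, a choice made after the values had been seen. This merged region held 148 CPM (144 to 152) in the E12.5 library, 125 CPM (123 to 127) in the E14.5 library and 102 CPM (101 to 104) in the E16.5 library. The log2 ratios were -0.25 (-0.30 to -0.20) for E14.5 over E12.5 and -0.29 (-0.32 to -0.25) for E16.5 over E14.5. From E12.5 to E16.5 the region was 1.45-fold lower (log2 -0.53, -0.58 to -0.49), in contrast to the 8.41-fold difference of the single peaks.

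Sequence outside the called peaks of the merged region was not counted, and its length was 4345 bp for E14.5 and 1681 bp for E16.5. To equal the E12.5 value, the uncalled sequence would have to hold 5.41 CPM per kb at E14.5, a density below that of the lowest called E14.5 peak of the interval (6.03). At E16.5 it would have to hold 27.3 CPM per kb, above the highest called E16.5 peak of the interval (21.5). Sequence uncalled at E12.5 was taken to hold no counts in this comparison, and what the uncalled sequence held was not measured at any stage.

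**Figure D2:**
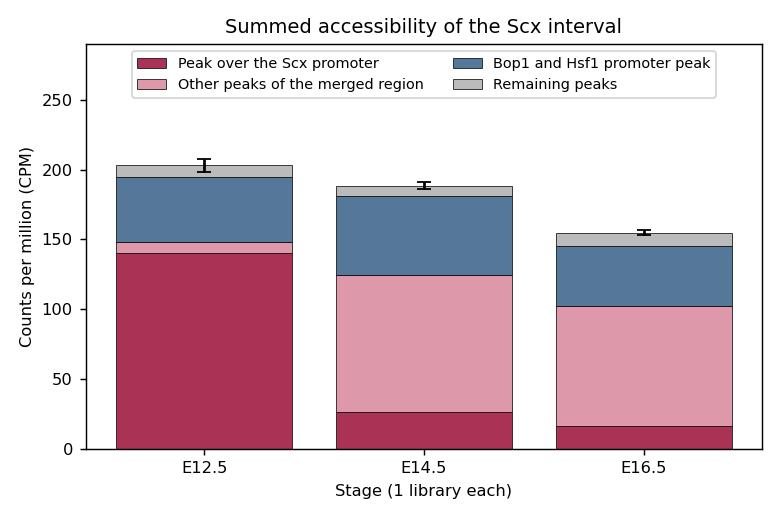
Summed CPM of the 30 kb interval at each stage (1 library each), stacked by the peak over the Scx promoter, the other peaks of the merged region, the Bop1 and Hsf1 promoter peak and the remaining peaks, with error bars for the 95% Poisson interval of the sum. The total went from 203 to 155 CPM, and most counts of the merged region were under the Scx promoter peak at E12.5 and under its other peaks later.

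A measure that needs no scaling between libraries is the share of the interval's own fragments. Of these, 72.9% (71.9% to 73.9%) lay in the merged region at E12.5, as did 66.0% (65.4% to 66.7%) in the next library and 66.0% (65.5% to 66.6%) in the last. By this share, the Scx region was lower after E12.5 and equal at the later stages, but the share depends on called width, which was 11526, 8491 and 11155 bp in the merged region. As CPM per kb of called width, the merged region over the other peaks of the interval gave 0.649, 0.653 and 0.581 in stage order. The first stages were then nearly equal and E16.5 was lower, so the pattern changed with the measure. The Scx promoter peak, comparable at the later stages, took 14.1% (13.6% to 14.6%) at E14.5 but 10.8% (10.5% to 11.2%) at E16.5. The peaks after Scx took 51.9% (51.2% to 52.6%) and 54.6% (54.0% to 55.2%). The balance within the locus was thus tilted away from the promoter and towards the downstream sequence at E16.5.

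From E14.5 to E16.5 the Scx promoter peak was called over similar stretches, the E16.5 peak containing the E14.5 peak. It was 1.59-fold lower at E16.5 (log2 -0.67, -0.75 to -0.60), although the peak was wider. In the same step, the sequence after Scx was 1.16-fold lower (log2 -0.21, -0.25 to -0.17). The Bop1 and Hsf1 promoter peak was 1.31-fold lower (log2 -0.39, -0.44 to -0.34). Among 11969 promoters of autosomal protein-coding genes whose called width differed by no more than 2-fold, the median of this log2 ratio was -0.31, and 774 promoters were at or below Scx (percentile 6.47). A value lower by 1.5-fold or more was found for 10.2% of these promoters, so the value of Scx was in the lower tail but not rare. Restricting these to promoters with an E14.5 level within 2-fold of Scx left 7453, and the percentile of Scx was then 7.00.

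The neighbouring promoters on the same chromosome were read in the same way. The Bop1 and Hsf1 promoter peak had 46.5 CPM (44.4 to 48.8), 56.6 CPM (55.2 to 58.1) and 43.1 CPM (42.1 to 44.1) in stage order. Its sum was thus highest at E14.5, whereas that of the merged Scx region was highest at E12.5. Per kb of called width the merged region was highest at E14.5 too, with 12.9, 14.7 and 9.18 CPM per kb in stage order. Its log2 ratios per kb were 0.19 and -0.68 for the steps to E14.5 and to E16.5. Over the 30 kb gene windows described below, the medians per kb were 0.62 and -0.87. This order was thus that of the median window as well. For the Bop1 and Hsf1 promoter peak the log2 ratio for E16.5 over E12.5 was -0.11 (-0.19 to -0.03). The Mroh1 promoter peak had 49.3 CPM (47.0 to 51.6), 41.8 CPM (40.6 to 43.1) and 35.5 CPM (34.6 to 36.4), with a log2 ratio of -0.47 (-0.55 to -0.40) for E16.5 over E12.5. This difference was close to that of the merged Scx region. All peaks of the interval outside the merged region together had a log2 ratio of -0.06 (-0.13 to 0.01).

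The small peak at the adjoining 3′ ends of Mroh1 and Bop1 moved the other way. Its levels were 0.703 CPM (0.477 to 0.997), 3.16 CPM (2.84 to 3.50) and 4.0 CPM (3.71 to 4.31) in stage order. Its called width was 276, 523 and 705 bp in the same order, and it rested on 52 counts at E12.5.

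Where counts of a wide peak are shared out evenly over its length, the Scx promoter and body had 40.7, 23.5 and 13.5 CPM from E12.5 to E16.5. These values rest on 3007, 1893 and 2120 bp of called sequence, with the uncalled rest of the gene taken as 0. The promoter alone (1000 bp before to 100 bp after the start site) then had 14.9, 13.6 and 7.03 CPM. Under this assumption the promoter differed little between E12.5 and E14.5 (log2 -0.13) and by -0.96 from E14.5 to E16.5. As the promoter lay wholly inside the peak at each stage, these ratios equal those of the whole peak per kb. The median 30 kb gene window, described below, had a log2 ratio per kb of -0.87 from E14.5 to E16.5. At E14.5 and E16.5 the sequence after Scx had 15.5 and 10.3 CPM per kb of called width, above the 12.4 and 6.39 of the promoter peak. An even split may therefore not hold. The files do not show where in the E12.5 peak the cut sites lay, so the E12.5 value of the promoter alone was not measured.

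Set beside other genes, the summed counts of the Scx interval were on the lower side of the middle. The same 30 kb window was placed about the start sites of 16873 autosomal protein-coding genes, windows that can overlap one another. Windows 2-fold lower made up 5.84% for E14.5 over E12.5, 0.605% for E16.5 over E14.5 and 3.01% for E16.5 over E12.5, and the Scx interval was not among them in any comparison. Its log2 ratio of -0.39 for E16.5 over E12.5 was at percentile 13.0, where the median window was at 0.04. For the steps to E14.5 and to E16.5 its percentiles were 27.2 and 23.1. Per kb of called width, the percentiles of the Scx interval were 10.4 and 78.2 for the steps and 31.7 for the whole span, so its place among windows depended on the called width. The median log2 ratio per kb of the windows was 0.62 and -0.87 for the steps and -0.25 for the whole span. The Scx interval had 0.23, -0.64 and -0.41. Among the 43 autosomal merged regions with an E12.5 peak of at least 10000 bp, the Scx region was at percentile 18.6, 27.9 and 16.3 for the same steps and the whole span. Regions 2-fold lower made up 4.65%, 0% and 0% of the 43, and Scx was not one of them. Over the whole span the median of those regions was -0.14, against -0.53 for Scx.

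**Figure D3:**
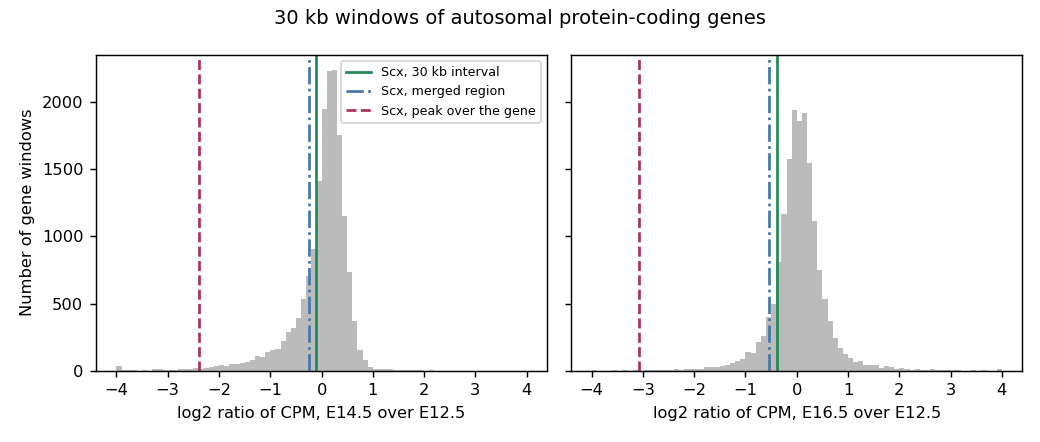
Distribution of the log2 ratio of CPM over 30 kb windows of 16873 autosomal protein-coding genes, for E14.5 over E12.5 and E16.5 over E12.5, with windows beyond 4 in either direction drawn at the edge. Lines mark Scx read as the 30 kb interval (-0.11 and -0.39), as the merged region (-0.25 and -0.53) and as the peak over the gene (-2.40 and -3.07). The last of these is a single peak and is drawn against windows only to show its size.

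The windows whose pair of stepwise log2 ratios lay nearest to that of Scx were those of Evi5l, 6030452D12Rik, Tshr, Lrrc20 and Kpnb1, at Euclidean distances of 0.0063 to 0.0085 over the 3 stages. The E12.5 values of these windows ranged from 66.5 to 118 CPM. As many as 346 windows (2.05%) lay within 0.1 of Scx, so these 5 genes stand for many.

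The share of nuclei with a fragment, with depth over all called peaks made equal, was lowest at E16.5 as the CPM were. Its first step had the opposite direction. Each nucleus was thinned to 1309 fragments, which left 6221, 19521 and 13834 nuclei and excluded 2073, 502 and 214. Fragments were drawn from all called peaks of a library, whereas CPM refers to regions shared by all 3 libraries. Shared autosomal regions held 74018406 of 87048167 counts at E12.5, 196123703 of 204289151 at E14.5 and 332388713 of 413425059 at E16.5. The equal draw therefore left unequal depth in shared regions, and its part in these shares was not tested. From the earliest to the latest library, the interval was then open in 18.0% (17.1% to 19.0%), 20.1% (19.5% to 20.6%) and 14.4% (13.8% to 15%) of nuclei. Without thinning the shares were 39.1%, 51.1% and 69.0%, the order of the depths. The merged region was open in 13.2% (12.4% to 14.1%), 13.7% (13.3% to 14.2%) and 9.62% (9.13% to 10.1%) of thinned nuclei, so the intervals of E12.5 and E14.5 overlapped and E16.5 was lower. Unthinned, it was open in 32.7%, 39.0% and 55.0%. The comparable Scx promoter peak was open in 3.16% (2.92% to 3.42%) of thinned nuclei at E14.5 but in 1.68% (1.47% to 1.91%) at E16.5, against 11.7% and 16% unthinned.

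The next question was whether, within a stage, Scx was open in the same nuclei as other tenogenic loci. These values do not depend on scaling between stages, but nuclei of 1 library are not replicates. Each nucleus was thinned to the lower quartile of its own library, 2529 fragments for E14.5 and 7187 for E16.5, which kept 15019 and 10537 nuclei. Nuclei were then sorted by how many of 8 tenogenic loci (Tnmd, Thbs4, Kera, Mkx, Fmod, Cilp, Htra3 and C1qtnf3) were open in them. The study used C1qtnf3 as a marker of fascia, together with Mfap5 and Clec3b, which are in the fibrogenic panel here.

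At E16.5 both Scx peaks were open more often in nuclei with more open tenogenic loci. The Scx promoter peak was open in 6.56% (5.48% to 7.78%) of nuclei with 0 open tenogenic loci, 8.26% with 1, 9.35% with 2, 10.9% with 3 and 14.2% (11.3% to 17.5%) with 4 or more. The sequence after Scx went from 29.0% (27.0% to 31.1%) through 31.7%, 35.9% and 43.9% to 50.9% (46.6% to 55.3%). The Bop1 and Hsf1 promoter peak, in the same nuclei and on the same stretch of chromosome, stayed between 20.6% and 22.7%. The rise was thus seen at both parts of the Scx region and not at the promoter of the gene that contains it.

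**Figure D4:**
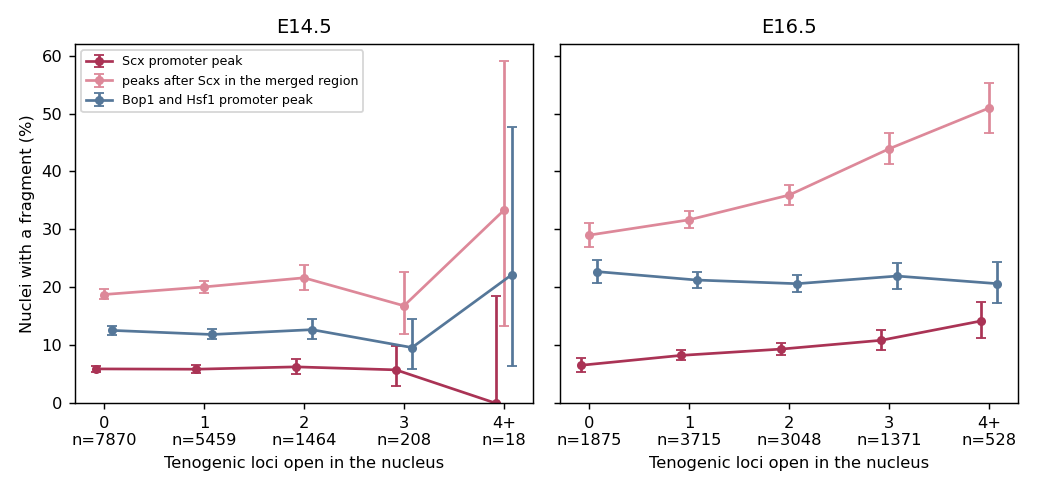
Share of thinned nuclei (%) with a fragment in the Scx promoter peak, in the peaks after Scx and in the Bop1 and Hsf1 promoter peak, by the number of open tenogenic loci, at E14.5 and E16.5, with exact binomial 95% intervals and the number of nuclei under each step. At E16.5 both Scx lines climb (6.56% to 14.2% and 29.0% to 50.9%) while the Bop1 and Hsf1 line is level, and at E14.5 the last step holds 18 nuclei.

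As a ratio, the Scx promoter peak was open 1.80-fold (1.46 to 2.22) more often at E16.5 in the 1899 nuclei with 3 or more open tenogenic loci than in the 1875 with none. Only 1.23% of 13222 promoter peaks were higher by 1.5-fold or more in this comparison, and Scx was at percentile 99.6. The sequence after Scx had a ratio of 1.58 (1.45 to 1.72), at percentile 87.5 of 109757 other peaks, of which 15% were higher by 1.5-fold or more. The promoter thus stood further from promoters than the downstream peak did from its own class. The Bop1 and Hsf1 promoter had a ratio of 0.95 (0.84 to 1.07). The small peak at the 3′ ends of Mroh1 and Bop1 had a ratio of 2.63 (1.70 to 4.08), from shares of 3.79% and 1.44%. Promoter fragments made up 30.9% of the first set of nuclei and 30.8% of the second, and the median depth before thinning was 17735 and 16785 fragments.

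The tie was not to tenogenic loci alone. With 3 or more open chondrogenic loci (from Acan, Col2a1, Chad, Matn1, Snorc, Col9a1, Cnmd and Col9a3) the Scx promoter peak was open 1.88-fold (1.57 to 2.26) more often than with none at E16.5, where 4.21% of promoter peaks were higher by 1.5-fold or more. Promoter fragments made up 34.3% of the chondrogenic nuclei and 30.5% of the others. The median depth before thinning was 15447.5 and 17112.5 fragments, and the part of these differences in the ratio was not tested. With fibrogenic loci (Postn, Cd34, Dpt, Clec3b, Mfap5, Pi16, Fap and Pdpn) the direction was opposite, with a ratio of 0.61 (0.50 to 0.75), where 3.83% of promoter peaks were lower by 1.5-fold or more. Promoter fragments made up 30.4% of the fibrogenic nuclei and 32.3% of the others, with a median depth before thinning of 17773.5 and 15649 fragments, and their part in the ratio was not tested. Dermal fibrogenic loci gave 0.87 (0.71 to 1.07), an interval that includes 1. In a second random draw of fragments, the ratio was 1.81 (1.51 to 2.17) for chondrogenic and 0.64 (0.52 to 0.78) for fibrogenic loci. The sequence after Scx had ratios of 1.19 (1.1 to 1.30) for chondrogenic, 1.1 (0.997 to 1.21) for fibrogenic and 0.81 (0.74 to 0.89) for dermal fibrogenic loci. These were at percentiles 74.4, 51.1 and 29.0 of other peaks. For fibrogenic loci the second draw gave 1.22 (1.1 to 1.35), an interval that excludes 1 where that of the first draw includes it.

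At E16.5, nuclei open at both kinds of loci had the highest share at the Scx promoter. It was open in 14.2% (12.5% to 16%) of the 1552 nuclei with 2 or more tenogenic and 2 or more chondrogenic loci. For the other sets, at both stages, only means fewer than 2 open loci of the other kind, and neither means fewer than 2 of each. These sets can thus hold nuclei with an open locus of a kind left out. The share was 8.51% (7.60% to 9.50%) with tenogenic loci only, 9.62% (8.21% to 11.2%) with chondrogenic loci only and 6.93% (6.16% to 7.76%) with neither. Beyond the gene, the shares were 42.8%, 38.4%, 33.8% and 29.6% in the same order, higher with tenogenic than with chondrogenic loci only. The Bop1 and Hsf1 promoter was at 20.3% to 22.5% in all 4 sets. For these crossed sets no other promoter peaks were read, depth was not compared and no second draw was made. At E14.5 the Scx promoter was open in 8.14% (4.52% to 13.3%) of the 172 nuclei with both kinds of loci. It was open in 8.39% (6.92% to 10.0%) of the 1276 with chondrogenic loci only. These intervals overlap, so no order of the sets is read at that stage.

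At E14.5 the ratio by tenogenic loci had an interval that included 1 at the Scx promoter peak, and several other ratios depended on the draw of fragments. It was open in 5.93%, 5.88%, 6.28% and 5.77% of nuclei with 0 to 3 open tenogenic loci, and in 0 of 18 nuclei with 4 or more, which allows a share of up to 18.5%. The ratio of 3 or more loci to none was 0.89 (0.51 to 1.56) on 226 nuclei, and 3.65% of 12125 promoter peaks were higher by 1.5-fold or more. In a second draw the ratio was 0.61 (0.32 to 1.16). The peaks after Scx had a ratio of 0.97 (0.73 to 1.28) by tenogenic loci, but 1.52 (1.23 to 1.88) in the second draw, so no direction is read from it. The intervals at the promoter include 1. In the first draw the interval overlaps that of E16.5 (1.46 to 2.22), whereas in the second it does not (1.30 to 1.97 at E16.5). The depths differ, and the stages were not tested against each other. For chondrogenic loci the ratio was 2.12 (1.5 to 3.0) on 248 nuclei, 30 of them open, at percentile 99.3 and with 5.11% of promoter peaks higher by 1.5-fold or more. In the second draw it was 1.45 (0.99 to 2.13), an interval that includes 1. For the sequence after Scx the ratio was 1.56 (1.28 to 1.90), where 16.1% of other peaks were higher by 1.5-fold or more, and 1.47 (1.21 to 1.79) in the second draw. At E12.5 only 12 thinned nuclei had 3 or more open tenogenic loci, too few for a ratio to be read.

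The reverse view took the nuclei in which the Scx promoter peak was open and asked which other loci were open more often than in the remaining nuclei. It used the same thinned nuclei and panel loci as above. For those loci it reads the same association from the other side and is not separate support. At E16.5 there were 939 such nuclei of 10537, and 0.641% of 16995 protein-coding genes were open 1.5-fold or more often in them. These were 109 genes (73 in the second draw), whereas 192 were lower by as much. Of the 39 genes of a tendon list 2 were among the higher genes, Kera and Tnmd, both loci of the tenogenic panel. In all, 28 of the 39 were above 1, beside 57.9% of all genes. The locus of Kera, a proteoglycan of cornea and tendon, was open in 9.16% of Scx-open and 5.07% of the other nuclei, a ratio of 1.81 (1.45 to 2.25). The locus of Tnmd, the tendon membrane protein tenomodulin, was open in 10.8% and 6.68%, a ratio of 1.61 (1.32 to 1.96). In nuclei open at the Bop1 and Hsf1 promoter, the corresponding ratios were 0.90 and 0.92.

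The matrix genes of the tendon list, among which Tnmd was counted, were spread on both sides of 1, with 12 of 18 above it, beside 57.9% of all genes. In the second draw 10 of 18 were above 1, and in nuclei open at the Bop1 and Hsf1 promoter 5 of 18. Fmod, which encodes a collagen-binding proteoglycan, had a ratio of 1.33 (1.17 to 1.51), and the proteoglycan gene Bgn 1.32 (1.08 to 1.60). Comp, a matrix protein of cartilage and tendon, had 1.21 (1.06 to 1.38) and Tnc, tenascin C, 1.19 (1.11 to 1.28). The fibrillar collagen genes Col1a1 and Col1a2 were both at 1.03, and the values of Col3a1 (0.89), Dcn (0.89) and Postn (0.87) were below 1.

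Among the regulators, the ratios at E16.5 were 1.05 for Mkx, 1.06 for Egr1, 1.07 for Egr2, 1.22 (1.11 to 1.33) for Six2 and 1.15 (1.03 to 1.27) for Eya1. Of the 12 signalling genes 7 were above 1, a share near that of all genes, and 10 in the second draw. Their ratios ran from 0.93 for Spry1 to 1.13 for Fgf8, with Tgfb1, Tgfb2, Tgfb3, Tgfbr1, Tgfbr2, Smad3, Fgfr1, Etv4, Etv5 and Spry2 between them. Sox9, Bmp4 and Gdf5, which act where tendon joins cartilage and in the joint, were at 1.05, 1.02 and 1.07. None of these regulators or signalling genes passed 1.5-fold.

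By panel, all 8 tenogenic loci were above 1 at E16.5, with a median ratio of 1.19, and all 8 chondrogenic loci, with a median of 1.33, beside a median of 1.02 for all genes. In the second draw the medians were 1.17 and 1.28, with 7 and 8 of 8 loci above 1, and Thbs4 was at 0.97 rather than 1.12. Chad, a cartilage matrix protein, was the highest chondrogenic locus in the first draw at 1.63 (1.34 to 1.98). In the second draw Snorc was above it, at 1.75 against 1.58. Only 1 of 8 fibrogenic loci was above 1, with a median of 0.86 (2 of 8 and 0.90 in the second draw), and Clec3b was the lowest at 0.70 (0.62 to 0.79). In nuclei open at the Bop1 and Hsf1 promoter, 3 of 8 tenogenic and 4 of 8 chondrogenic loci were above 1, with medians of 0.97 and 1.0. Over the myogenic, endothelial, epithelial and blood panels, the median ratio in Scx-open nuclei ranged from 0.72 for myogenic to 1.07 for epithelial loci. These 4 panels have 2 to 4 loci with a value each, and in the second draw their medians ranged from 0.89 to 1.14. Of the Schwann cell markers only Sox10, a regulator of neural crest and Schwann cells, is given here, at 1.48 (1.14 to 1.93) and 1.28 in the second draw. Its ratio was above the medians of the tenogenic and chondrogenic panels in the first draw. The part of other cell types in the ratios was not tested.

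**Figure D5:**
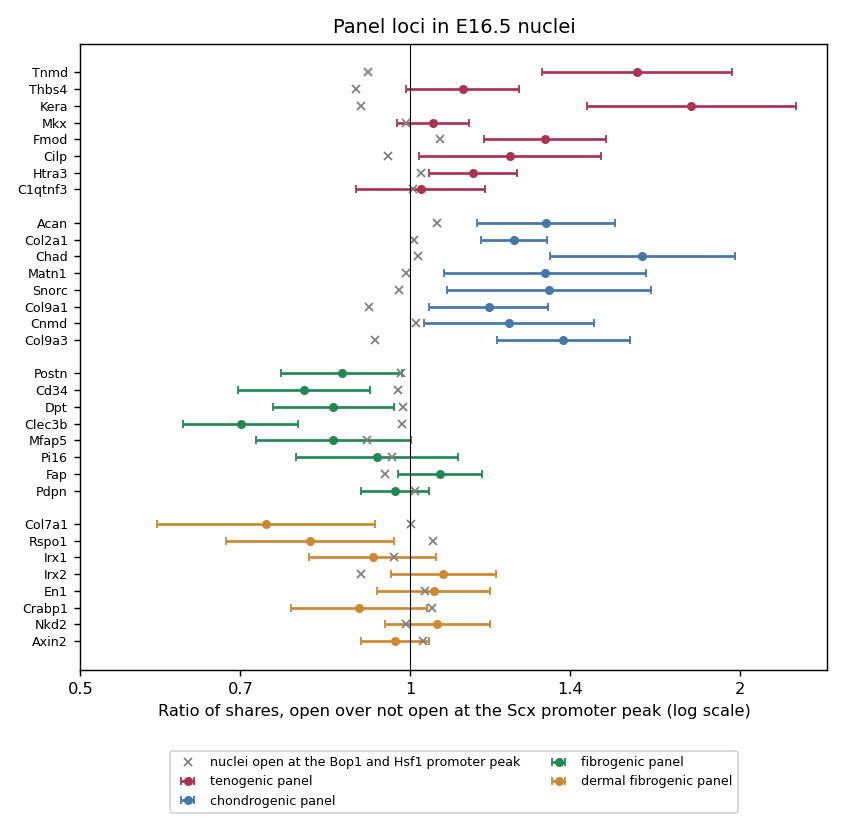
Ratio of the share of E16.5 nuclei with an open locus, in nuclei open over nuclei not open at the Scx promoter peak (log axis), for the genes of 4 panels, with 95% intervals. Grey crosses give the same ratio for nuclei open at the Bop1 and Hsf1 promoter peak. The 8 tenogenic and 8 chondrogenic points lie to the right of 1, and 7 of the 8 fibrogenic points lie to the left.

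At E14.5 the same view gave weaker differences, from 892 Scx-open nuclei. Genes open 1.5-fold or more often made up 0.383% of 15682 (60 genes, against 173 lower by as much). Of 39 tendon genes 0 were among the higher genes, and 25 were above 1 (20 in the second draw), beside 53.2% of all genes. The tenogenic median was 1.05, and 4 of 8 loci were above 1. The chondrogenic median was 1.24, with 6 of 8 above 1. In the second draw the medians were 0.96 for tenogenic and 1.06 for chondrogenic loci, with 3 and 6 of 8 above 1. Snorc went from 1.97 to 1.26 and Chad from 0.58 to 1.23, so the E14.5 ratios of single loci moved with the draw. At E12.5, where the Scx peak is the wide one, 1.82% of 15345 genes passed 1.5-fold (280 genes, against 572 lower by as much). Of 38 tendon genes 0 passed it, with a median of 0.98.

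The 2 parts of the Scx region were also compared with each other at E16.5. The sequence after Scx was open in 42.0% of nuclei with an open Scx promoter peak and in 34.3% of the others, a ratio of 1.22 (1.13 to 1.33). The Bop1 and Hsf1 promoter had 19.9% and 21.5% in the same nuclei, a ratio of 0.92 (0.81 to 1.06). Most of the 16995 protein-coding genes read above had ratios between 0.76 and 1.28 in these nuclei, a range that includes 1.22. No other pairs of neighbouring peaks were read and no second draw was made. A tie particular to the 2 parts is therefore not read from this ratio. At E14.5 the ratio for the sequence after Scx was 1.1 (0.97 to 1.26), an interval that includes 1.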

How the data were processed

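The authors deposited raw counts of transposase cut sites for each nucleus and peak, without normalisation. Per the submitters' processing notes the reads had been aligned to mm10 with Cell Ranger ATAC 1.1.0, whereas the file headers give 1.0.1, 1.0.1 and 1.2.0 from E12.5 to E16.5. Each library had its own peak calling. All deposited nuclei were used, and no doublet caller was run.

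Whole peaks overlapping a stretch by 1 bp were summed. Intervals were computed on fragment equivalents (cut sites divided by 2, rounded up). They are exact Poisson for sums, exact (Clopper-Pearson) binomial for shares, exact conditional for ratios of sums and log-scale for ratios of shares. There was no replicate and hence no test. Genes came from GENCODE M21 and sequences from RefSeq GRCm38.p6. A gene locus was its body with 2000 bp upstream. In the comparison of Scx-open nuclei, genes within 1 Mb of Scx and genes open in under 1% of nuclei were left out. Python 3.11.15, numpy 2.4.6, pandas 2.3.3, scipy 1.17.1 and matplotlib 3.10.9 were used, and the steps were tested on simulated data.

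The interval, panels and lists were chosen with earlier results of these data known, and panels include genes that the study used for its clusters. Named genes were those starting in the interval with Bop1 and Mroh1, the 5 nearest windows, the 10 highest genes in Scx-open nuclei at E14.5 and E16.5, the tenogenic panel and the tendon list. Genes of the other marker panels were named outside this rule, some after their values had been seen. The crossing of panels, the comparisons within the interval and the percentiles among peaks were added after values had been seen. Some genes and 1 sequence are not reported here.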

Additional observations from a re-analysis of the deposited data

How the results depend on the processing

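No paired analysis was possible because each stage has 1 library, and for the same reason no replicate could be left out. Depth limits the values per nucleus, and peaks called in each library alone limit every sum, since sequence outside them was not counted. For the interval, the log2 ratios of E14.5 over E12.5, E16.5 over E14.5 and E16.5 over E12.5 were 0.051, -0.42 and -0.37 with the median ratio over shared regions, and 0.068, -0.54 and -0.47 per count in all autosomal peaks. They were 0.026, 0.99 and 1.02 as counts per nucleus, which follow the depth of the libraries, and 0.23, -0.64 and -0.41 per kb of called width. They were -0.27, -0.18 and -0.45 in the stretch of the E12.5 peak, and -0.25, -0.29 and -0.53 in the merged region. The step to E14.5 thus changed sign under 4 of these settings. Fragment equivalents, peaks wholly inside, peaks open in 1% of nuclei and leaving out the deepest 5% of nuclei moved these ratios by less than the counting error. For the peak over the gene, the 3 ratios were -2.24, -0.81 and -3.05 with the median ratio, -0.79, -0.79 and -1.59 with counts shared out evenly, and -0.13, -0.96 and -1.08 for the promoter alone. Those for the promoter alone equal the ratios of the peak per kb and are not a separate reading.

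The share of open nuclei from E12.5 to E16.5 was 9.48%, 10.6% and 7.87% with a smaller number of fragments drawn, and 39.1%, 51.1% and 69.0% without thinning. The Scx ratio by tenogenic loci was 2.54 at E14.5 and 4.33 at E16.5 without thinning, where deeper nuclei have more of all loci open. It was 1.04 at E14.5 with 2 or more loci and 0 at E12.5 with another seed. At E16.5 it was 1.57 with 2 or more loci, 1.60 with another seed and 1.86 without the deepest nuclei. With another seed, chosen for the other panels after the values had been seen, the E14.5 ratio was 1.45 by chondrogenic and 1.04 by dermal fibrogenic loci, against 2.12 and 0.87, the ratio of the peaks after Scx by tenogenic loci was 1.52, against 0.97, that by fibrogenic loci at E16.5 was 1.22, against 1.1, and the E14.5 median of panel loci in Scx-open nuclei was 0.96 for tenogenic and 0.97 for fibrogenic loci, against 1.05 and 1.01. Genes at 2-fold numbered 9, 2 and 9 from E12.5 to E16.5, against 280, 60 and 109 at 1.5-fold.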

Other observations

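The 10 genes with the highest ratio in Scx-open nuclei at E16.5 were Gapt, Rgs18, Majin, Gpr26, Depp1, Atp6v1e2, Tnfrsf18, Slc28a2, Pdcd1 and Sycp3, with ratios of 1.99 to 2.50. None is a tenogenic or chondrogenic panel gene, and the loci of 9 of them were open in fewer than 6% of Scx-open nuclei. Atp6v1e2, which encodes a subunit of the vacuolar proton pump, was the most widely open of them, in 12% of Scx-open and 5.83% of the other nuclei, a ratio of 2.06 (1.70 to 2.50) and of 1.72 with another random draw of fragments. Rgs18, a regulator of G protein signalling, had a ratio of 2.40 (1.76 to 3.28) and of 2.56 with another draw, whereas Gpr26 went from 2.18 to 0.84. In that draw 5 of the 10 were at or above 1.5.

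At E14.5 the highest ratios were those of Celf3, Krt86, Snorc, Hsd17b6, Vpreb3, Stap2, Gm14403, Bnipl, Gm128 and Grk1, from 1.76 to 2.20. In another draw 9 of them had a value, between 0.81 and 1.46, so none kept a ratio of 1.5. Snorc, a chondrocyte proteoglycan, is the 1 panel gene among them. Of the 100 highest of 15682 genes at E14.5 and the 100 highest of 16995 genes at E16.5, 2 were shared. As the E14.5 ratios moved with the draw, nothing is read from this overlap.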
